A study of Arabidopsis thaliana with 6 samples.

Results

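The WRKY family of Arabidopsis thaliana was examined in 14-day-old seedlings overexpressing the small open reading frame sORF2146. The members were 57 loci chosen by locus identifier, each represented by the one array probe whose annotation carries that identifier, out of 35475 gene identifiers on the array. The sORF2146ox transgenic seedlings (3 arrays) were compared with transgenic seedlings carrying the empty pMDC32 vector (3 arrays). Both were grown on plates with days of 14 hours of light and 10 of dark. The labels describe 3 biological replicates per group and give neither the number of independent transgenic lines behind them nor the promoter that drives sORF2146. Whole seedlings were used, so fewer cells of a type and less RNA per cell cannot be told apart.

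WRKY proteins are plant transcription factors named after a conserved amino acid motif in their DNA-binding domain, which recognises the W box, a short element common in the promoters of defence genes. They are sorted by domain number and zinc finger type: subgroup I has a pair of WRKY domains, subgroups IIa to IIe have a single domain, and subgroup III has a single domain with a different zinc finger. Many members are themselves induced within the salicylic acid, wounding and pathogen responses, where mitogen-activated protein kinases act upstream and proteins with a VQ motif bind to them. Others act in trichomes, seed coat, stem walls, phosphate supply and senescence.

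Values are relative signals, the processed signal of a probe divided by the 75th percentile of its array, so that 1 means a spot as bright as that percentile. Differences are log2 differences, sORF2146ox minus vector control, with standard errors from limma, and p-values were adjusted over all 23394 genes tested. Of the 57 members, 55 passed the filter on dim probes, which kept a probe if either group had it well above background on all of its 3 arrays. WRKY58 was well above background on none of the 6 arrays. WRKY55 was well above background on 2 control arrays only. WRKY41 was well above background on 1 of 3 and WRKY42 on 2 of 3 sORF2146ox arrays, and the other 53 members were so on all 6.

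Probes well above background made up 65.3% to 68.8% of an array, and no spot was saturated. The 75th percentile lay between 817 and 997 on the sORF2146ox arrays and between 1098 and 1170 on the control arrays. The 2 groups were on different slides, scanned separately, and a slide effect cannot be told apart from a group effect. Vector control replicate 1 lay farthest from the others on the first principal component, and values without it are given beside many of the results that it moved. Green shoot markers were well above background in 7 of 7 cases on all arrays, with summed relative signals of 379 to 418 in sORF2146ox and 408 to 436 in the control. Root markers summed to 88.8 to 105 in sORF2146ox and 86.2 to 112 in the control. Of 5 seed markers, CRA1 and SESA1 were never well above background, and the summed signal was 0.0296 to 0.0600 in sORF2146ox and 0.0620 to 1.80 in the control. The 5 floral organ markers summed to 0.132 to 0.430 in sORF2146ox and 0.514 to 1.24 in the control. SEP1, a floral organ regulator, and EM1, a late seed protein, were well above background on no sORF2146ox array and on all 3 control arrays, so only a bound on their difference was measured. SEP1 was at least 1.11-fold lower in sORF2146ox, and its fitted difference was 0.15 with normexp and 0.13 with background subtraction. EM1 was at least 24.6-fold lower in sORF2146ox, and at least 8.85-fold lower without vector control replicate 1. The part of these tissue differences in the values below was not tested.

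**Figure D1:**
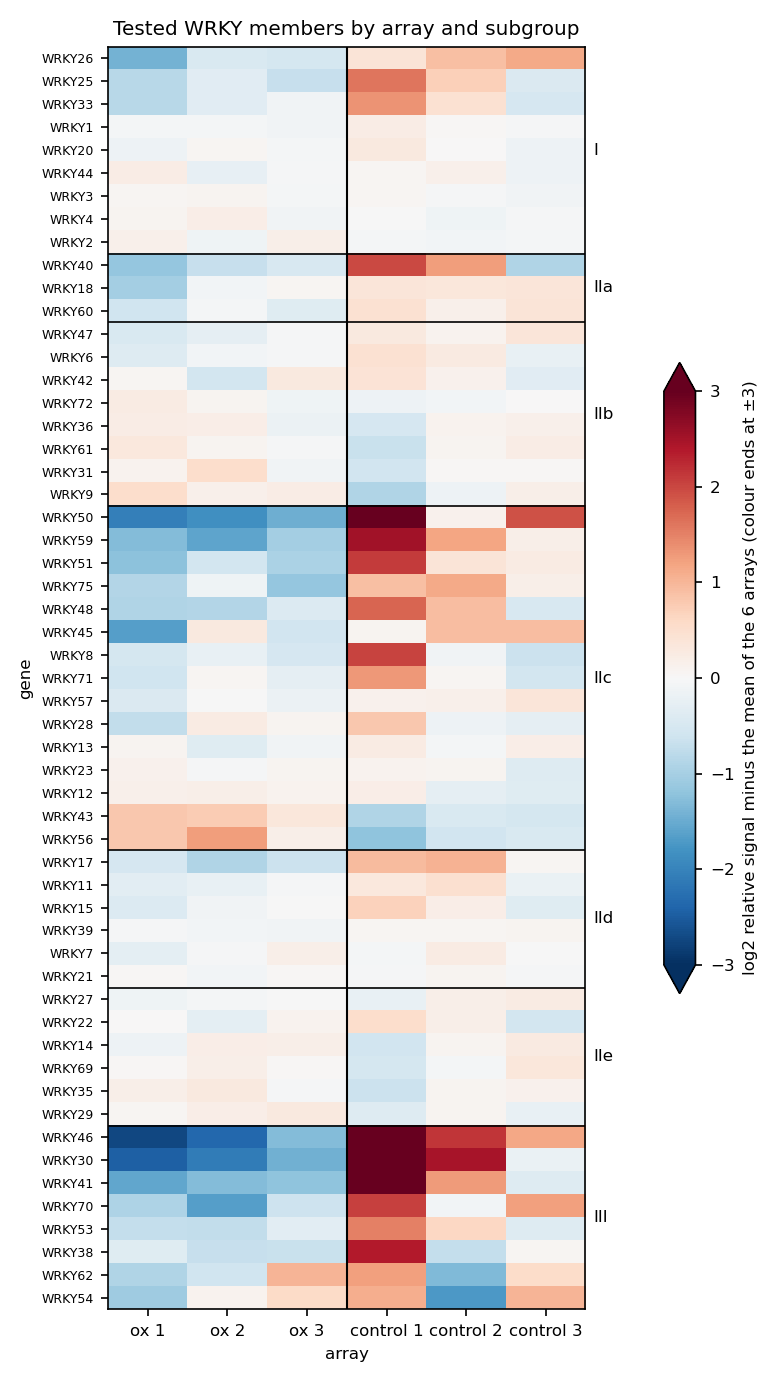
Each row is one of the 55 tested WRKY members, grouped by subgroup and sorted by log2 difference, and each column is an array. Colour is the log2 relative signal minus the gene's mean over the 6 arrays. The strongest reds lie in vector control replicate 1, in subgroups III and IIc, while WRKY43 and WRKY56 run the other way.

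Most of the family was lower in sORF2146ox by fitted value, and 2 members passed the test: WRKY46 of subgroup III fell and WRKY43 of subgroup IIc rose. Over all genes tested, limma called 5.17%, with 2.65% lower and 2.51% higher, so 1 call in each direction among 55 members is near the background. Fitted differences were below 0 for 39 of 55 members, or 70.9%, and for 46.0% of all genes. The median difference was -0.27 over the members and 0.03 over all genes. A fitted fall of 2-fold or more was found for 16 members, or 29.1%, where 4.86% of all genes had one. Background correction changed that count: with normexp it was 8 members (14.5%, against 1.62% of all genes), and with background subtraction 11 (20.0%, against 1.86%), each with an offset of 50. With no scaling between arrays 50 of 55 members were below 0, where the median of all genes was -0.28. A fitted rise of 2-fold or more was found for 2 members, or 3.64%, against 1.38% of all genes. Without vector control replicate 1, 11 of 55 members, or 20.0%, were lower by 2-fold or more, against 4.38% of all genes, and the median was -0.11.

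All sORF2146ox arrays lay below all control arrays for 16 members, where 17.6% of all genes did so. The opposite held for 2 members, WRKY43 and WRKY56, where it held for 23.0% of all genes. At an unadjusted p under 0.05, 17 members were lower and 3 higher, against 14.3% and 16.5% of all genes. By subgroup the median difference was -1.65 in III, -0.70 in IIa, -0.54 in IIc, -0.24 in IId, -0.10 in I, 0.14 in IIb and 0.16 in IIe. These medians are descriptions without a test. Vector control replicate 1 was the lowest of the 6 arrays for 5 of 8 members of IIb and 5 of 6 of IIe, against 32.5% of all genes. It was the highest for 9 of 15 members of IIc, against 26.4% of all genes.

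**Figure D2:**
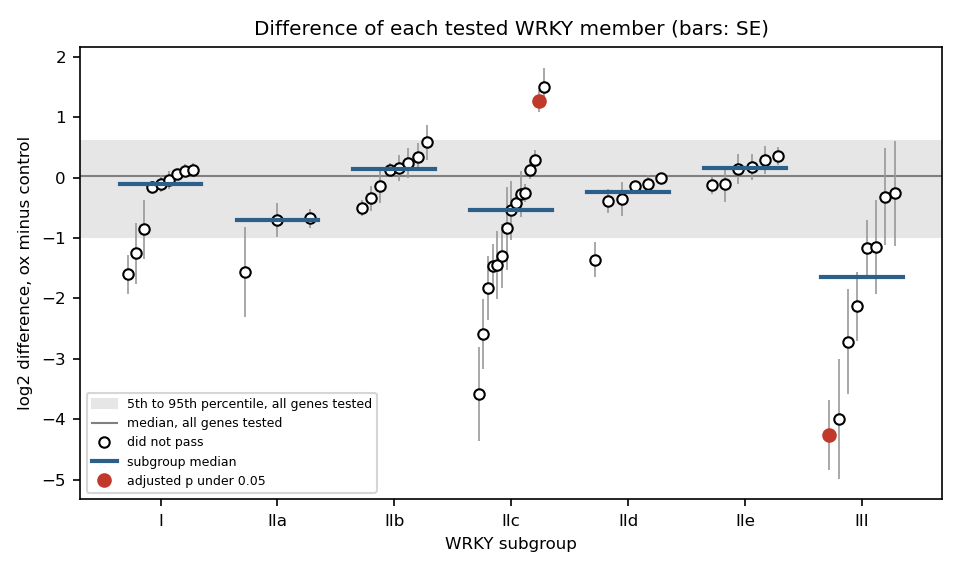
The plot shows the log2 difference of each tested member by subgroup, with its SE as a bar, the subgroup median as a blue line and the middle range of all genes as a grey band. Filled points passed the test. Subgroup III has 8 members below 0 with a median of -1.65, and subgroups IIb and IIe lie within the grey band.

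Subgroup III holds many of the salicylic acid and senescence regulators of the family. All 8 tested members had a fitted difference below 0. The test called 1 of them lower, where it called 2.65% of all genes lower. Vector control replicate 1 was the highest of the 6 arrays for 8 of 8. Over all genes that array was the highest for 26.4%. Without it the subgroup median was -1.17. With normexp and all arrays the median lay between -0.63 and -0.55, with WRKY62 at 0.059.

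WRKY46 (AT2G46400) acts in basal defence, osmotic stress and hormone responses. Its relative signal was 0.132, 0.171 and 0.355 in sORF2146ox replicates 1, 2 and 3, against 7.35, 3.90 and 1.96 in vector control replicates 1, 2 and 3. The groups did not overlap, and the lowest control array was still above the highest sORF2146ox array. WRKY46 fell by 4.26 on the log2 scale, which is 19.1-fold, with an SE of 0.58 over 3 arrays a group (limma adjusted p = 0.0297). It passed without vector control replicate 1 at -3.79 and without replicate 3 at -4.74 (limma adjusted p = 0.0353 and 0.0235). It did not pass without vector control replicate 2 (-4.24, limma adjusted p = 0.10) or without sORF2146ox replicate 1, 2 or 3, at -3.96, -4.14 and -4.67 (limma adjusted p = 0.104, 0.116 and 0.0855). The adjusted p ranged from 0.0092 to 0.28 over 17 alternatives.

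WRKY30 (AT5G24110), induced early by defence and oxidative stimuli, read 0.0117, 0.0148 and 0.0235 in sORF2146ox, against 0.838, 0.355 and 0.0556 in the control. The groups did not overlap, but the control arrays spread by 3.91 on the log2 scale. Its difference was -3.99 (SE 0.99, limma adjusted p = 0.0697). WRKY41 read 0.00975, 0.0116 and 0.0124 in sORF2146ox, 1 of these well above background, against 0.263, 0.0691 and 0.0219 in the control. Its difference was -2.71 (SE 0.86, limma adjusted p = 0.104), again with no overlap. Both had their lowest control value in replicate 3, and without that array WRKY30 passed at -5.09 (limma adjusted p = 0.018). WRKY41 was at -3.59 there (limma adjusted p = 0.044), but it entered the test through the control group alone. Without vector control replicate 1 WRKY30 was at -3.14 and WRKY41 at -1.80. With normexp WRKY30 was at -1.71 and WRKY41 at -0.63, and with background subtraction they were at -1.97 and -0.73.

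WRKY70 (AT3G56400), which favours salicylic acid over jasmonate responses, read 0.864, 0.525 and 1.08 in sORF2146ox, against 6.85, 1.57 and 3.85 in the control. Its difference was -2.13 (SE 0.58, limma adjusted p = 0.0806), with no overlap, and was -1.64 without vector control replicate 1. WRKY54, which acts with WRKY70 in senescence and salicylic acid control, read 0.155, 0.352 and 0.485 in sORF2146ox, against 0.692, 0.0987 and 0.665 in the control. Its groups overlapped, with the second control array below all sORF2146ox arrays, and its difference of -0.26 (SE 0.87) did not pass. Without vector control replicate 1 that difference was 0.22. WRKY55 is the neighbour of WRKY54 on the chromosome in the RefSeq gene table. Its relative signal was 0.00246, 0.00213 and 0.00194 in sORF2146ox, none well above background, against 0.181, 0.0187 and 0.00737 in the control, the first 2 well above background. WRKY55 was not tested. Its estimated bound was a 3.18-fold lower signal in sORF2146ox. The bound was 1.28-fold without vector control replicate 1, 3.97-fold without replicate 2 and 6.33-fold without replicate 3. This bound sets the mean of all control arrays, at their own readings, against the mean of the sORF2146ox arrays. Each sORF2146ox array was taken as the higher of its own spot and the dimmest spot well above background on that array. The third control array was not well above background, so the bound is not a strict minimum.

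WRKY53, a regulator of the onset of leaf senescence, read 0.0350, 0.0341 and 0.0462 in sORF2146ox, against 0.163, 0.0882 and 0.0440 in the control. The third control array lay within the range of the sORF2146ox arrays, and the difference was -1.17 (SE 0.47, limma adjusted p = 0.159). It was -0.71 without vector control replicate 1 and -0.32 with normexp. WRKY38 and WRKY62 are repressors of basal defence that act together. WRKY38 read 0.0409, 0.0329 and 0.0331 in sORF2146ox, against 0.276, 0.0323 and 0.0550 in the control, and its difference of -1.16 (SE 0.78) was -0.25 without vector control replicate 1. WRKY62 read 0.0119, 0.0145 and 0.0450 in sORF2146ox, against 0.0518, 0.00888 and 0.0326 in the control. Its groups overlapped fully, its difference was -0.32 (SE 0.80), and it was 0.22 without vector control replicate 1.

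**Figure D3:**
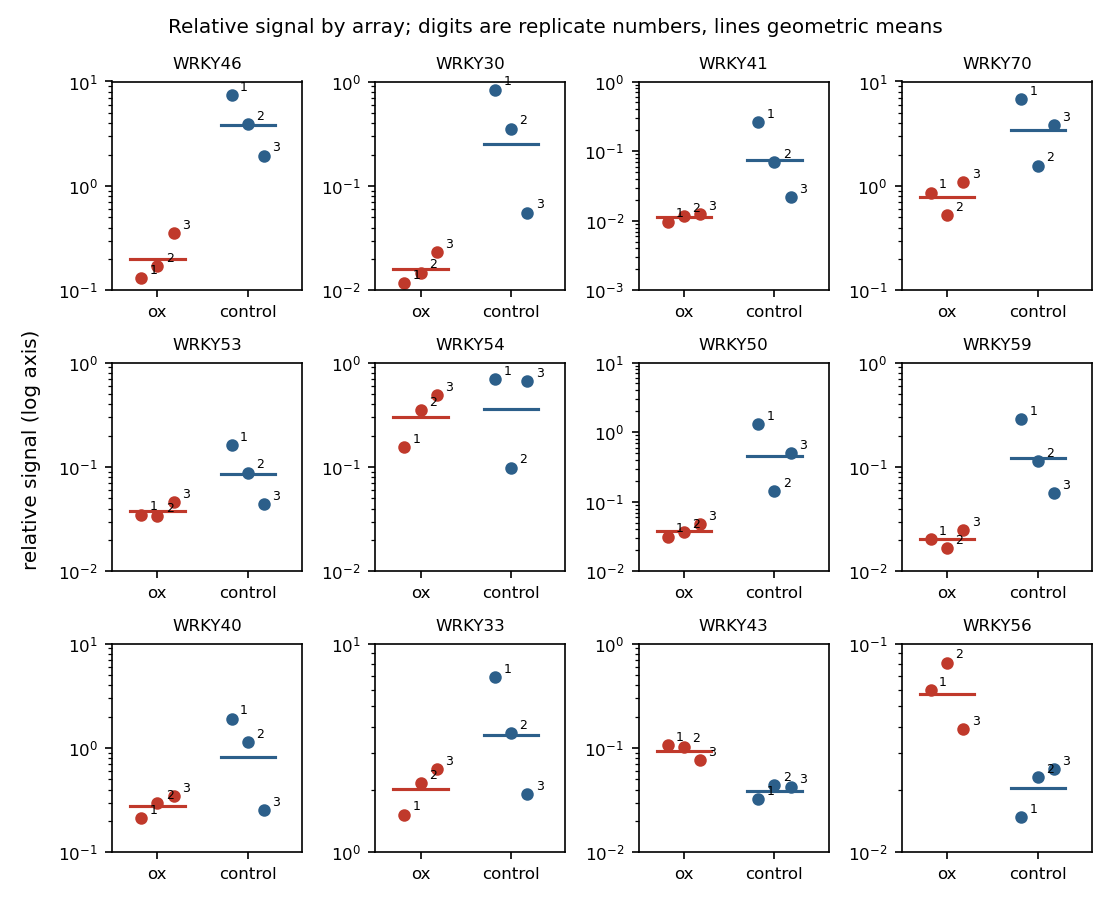
Relative signal on log axes for 12 members, with sORF2146ox arrays in red at the left, control arrays in blue at the right, digits for replicate numbers and lines for geometric means. WRKY46, WRKY30, WRKY41, WRKY70, WRKY50 and WRKY59 do not overlap between groups, WRKY43 and WRKY56 do not overlap in the other direction, and WRKY53, WRKY54, WRKY40 and WRKY33 overlap.

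Subgroup IIc held members that differed in both directions. Of its 15 members, 11 had a fitted difference below 0 and 4 above. WRKY43 passed, where limma called 2.51% of all genes higher. WRKY43 (AT2G46130) has been studied in seed germination and seed lipid composition. It read 0.106, 0.103 and 0.0767 in sORF2146ox, against 0.0323, 0.0440 and 0.0421 in the control. The groups did not overlap, and spread within a group was small, with an SD on the log2 scale of 0.26 in sORF2146ox and 0.24 in the control. WRKY43 rose by 1.27, which is 2.41-fold, with an SE of 0.18 over 3 arrays a group (limma adjusted p = 0.0317). It passed without vector control replicate 1 at 1.13 and without replicate 3 at 1.32 (limma adjusted p = 0.0385 and 0.0444). It did not pass without vector control replicate 2 at 1.35 (limma adjusted p = 0.0935) or without sORF2146ox replicate 1, 2 or 3 at 1.18, 1.21 and 1.42 (limma adjusted p = 0.106, 0.121 and 0.0780). The adjusted p ranged from 0.0299 to 0.70 over 17 alternatives, and its difference was 0.63 with normexp and 0.69 with background subtraction, both with an offset of 50.

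WRKY56 (AT1G64000) had the largest fitted rise of the 55 tested members. It read 0.0599, 0.0810 and 0.0389 in sORF2146ox, against 0.0147, 0.0228 and 0.0250 in the control. The groups did not overlap, and the difference of 1.5 (SE 0.33, limma adjusted p = 0.0578) lay just outside the threshold, and was 0.61 with normexp. WRKY12, a regulator of pith cell walls in the stem, read 0.0626, 0.0632 and 0.0605 in sORF2146ox, against 0.0645, 0.0464 and 0.0436 in the control. Its difference was 0.29 (SE 0.16) and was 0.47 without vector control replicate 1, where it passed (limma adjusted p = 0.0440, with a range of 0.0440 to 0.96 over 17 alternatives).

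WRKY50 (AT5G26170) and WRKY51 (AT5G64810) repress jasmonate responses under salicylic acid signalling. WRKY50 read 0.0317, 0.0366 and 0.0473 in sORF2146ox, against 1.32, 0.144 and 0.495 in the control. Its difference was -3.58 (SE 0.78, limma adjusted p = 0.0575), with the sORF2146ox arrays close together and the control arrays spread by 3.20 on the log2 scale. It was -2.81 without vector control replicate 1 and -2.16 with normexp. WRKY51 read 0.129, 0.206 and 0.158 in sORF2146ox, against 1.31, 0.396 and 0.363 in the control, with a difference of -1.83 (SE 0.52, limma adjusted p = 0.0884). WRKY59 read 0.0202, 0.0168 and 0.0247 in sORF2146ox, against 0.288, 0.114 and 0.0560 in the control, with a difference of -2.59 (SE 0.59, limma adjusted p = 0.0603). None of these overlapped between groups. WRKY51 and WRKY59 passed without vector control replicate 1, at -1.23 and -1.97 (limma adjusted p = 0.046 and 0.048). WRKY59 also passed without vector control replicate 3, at -3.15 (limma adjusted p = 0.034), and its difference was -0.91 with normexp.

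WRKY75 and WRKY45 act in phosphate starvation, where they activate phosphate transporter genes. WRKY75 read 0.168, 0.282 and 0.139 in sORF2146ox, against 0.575, 0.676 and 0.349 in the control, with no overlap and a difference of -1.46 (SE 0.35, limma adjusted p = 0.0674). WRKY45 read 0.358, 1.39 and 0.759 in sORF2146ox, against 1.20, 2.14 and 2.16 in the control. Here the spread lay in the sORF2146ox arrays, the second of which was above the first control array, and the difference was -1.29 (SE 0.53, limma adjusted p = 0.163). WRKY48, a repressor of basal resistance, read 0.0541, 0.0548 and 0.0763 in sORF2146ox, against 0.339, 0.190 and 0.0718 in the control, with overlap and a difference of -1.45 (SE 0.56, limma adjusted p = 0.149). Without vector control replicate 3 it passed (limma adjusted p = 0.038), without replicate 1 it was at -0.94, and with normexp it was at -0.64.

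WRKY8 and WRKY71 were high on a single control array, replicate 1. WRKY8, a defence and salt stress factor, read 0.0236, 0.0290 and 0.0241 in sORF2146ox, against 0.138, 0.0315 and 0.0216 in the control. WRKY71, a regulator of shoot branching and flowering time, read 0.0566, 0.0897 and 0.0714 in sORF2146ox, against 0.213, 0.0896 and 0.0590 in the control. Neither passed, with differences of -0.84 for WRKY8 and -0.54 for WRKY71, and without that array these were -0.036 and -0.028. The other members of the subgroup, WRKY57, WRKY28, WRKY13 and WRKY23, had differences between -0.42 and 0.13. Of these WRKY57, a drought tolerance factor, did not overlap between groups, at 0.700, 0.929 and 0.824 in sORF2146ox against 1.02, 1.04 and 1.20 in the control. WRKY28, at -0.27, had control arrays spread by 1.08 on the log2 scale with vector control replicate 1 highest, and was at 0.13 with normexp.

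Subgroup IIa has 3 members, WRKY18, WRKY40 and WRKY60, which bind each other and restrain defence gene expression. All 3 had a fitted difference below 0 and none passed in limma, with 2 lower at an unadjusted p under 0.05, against 14.3% of all genes. WRKY40 read 0.214, 0.296 and 0.347 in sORF2146ox, against 1.91, 1.15 and 0.257 in the control. The third control array lay among the sORF2146ox arrays, and the difference was -1.56 (SE 0.74, limma adjusted p = 0.212), or -0.95 without vector control replicate 1. Without vector control replicate 3 it was -2.40 and passed (limma adjusted p = 0.031). WRKY18 read 0.388, 0.735 and 0.814 in sORF2146ox, against 1.0, 0.990 and 1.01 in the control. Its control arrays agreed closely, with an SD of 0.01 on the log2 scale, and the spread lay in the sORF2146ox arrays, with an SD of 0.58. WRKY60 read 0.199, 0.287 and 0.235 in sORF2146ox, against 0.414, 0.336 and 0.393 in the control. WRKY18 and WRKY60 did not overlap between groups, and their differences were -0.70 (SE 0.28, limma adjusted p = 0.162) and -0.67 (SE 0.16, limma adjusted p = 0.0651).

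In subgroup I, none of the 9 tested members passed in limma. At an unadjusted p under 0.05, 2 of 9 were lower, or 22.2%, against 14.3% of all genes. WRKY25, WRKY26 and WRKY33 act together in heat tolerance, and WRKY33 also drives the synthesis of camalexin, the main phytoalexin. WRKY26 (AT5G07100) read 0.0811, 0.160 and 0.151 in sORF2146ox, against 0.284, 0.404 and 0.477 in the control. The groups did not overlap, and its difference of -1.60 (SE 0.32, limma adjusted p = 0.0510) lay just outside the threshold. Unlike most members with a large difference, it had its lowest control value in replicate 1, and its difference was -1.81 without that array. WRKY25 read 0.101, 0.141 and 0.111 in sORF2146ox, against 0.544, 0.296 and 0.133 in the control, and WRKY33 read 1.52, 2.15 and 2.5 in sORF2146ox, against 6.88, 3.73 and 1.90 in the control. Both overlapped through the third control array, with differences of -1.25 (SE 0.51) and -0.86 (SE 0.48). They were at -0.77 and -0.40 without vector control replicate 1. Without replicate 3 WRKY25 passed (limma adjusted p = 0.048), and WRKY33 did not. The other 6 tested members, WRKY1, WRKY2, WRKY3, WRKY4, WRKY20 and WRKY44, had differences between -0.15 and 0.13 with SEs between 0.08 and 0.15. Among them is WRKY44, a trichome and seed coat regulator also called TTG2, at -0.04.

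In subgroup IId, WRKY17 (AT2G24570), a repressor of basal resistance to bacteria, read 0.259, 0.194 and 0.235 in sORF2146ox, against 0.701, 0.757 and 0.378 in the control. The groups did not overlap, and the difference of -1.36 (SE 0.29, limma adjusted p = 0.0543) did not pass. It was -1.68 and passed without vector control replicate 3 (limma adjusted p = 0.018). WRKY11, which acts with WRKY17, read 0.252, 0.270 and 0.310 in sORF2146ox, against 0.395, 0.438 and 0.273 in the control, with a difference of -0.39 (SE 0.20). WRKY15, WRKY39, WRKY7 and WRKY21 had differences of -0.35, -0.14, -0.11 and 0.00 on the log2 scale.

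Subgroups IIb and IIe held no difference of 2-fold. WRKY9 had the largest fitted rise of IIb at 0.58 (SE 0.29), reading 0.144, 0.110 and 0.116 in sORF2146ox, against 0.0537, 0.0894 and 0.114 in the control. Its control arrays spread by 1.08 on the log2 scale, with vector control replicate 1 lowest, and its difference was 0.35 with normexp. WRKY47 was the one member of IIb whose groups did not overlap, where 17.6% of all genes lay fully below the control. It read 0.0671, 0.0768 and 0.0893 in sORF2146ox, against 0.113, 0.0981 and 0.118 in the control. Its difference was -0.50 (SE 0.14, limma adjusted p = 0.0808), and was -0.15 with normexp and -0.18 with background subtraction. WRKY6 and WRKY42, which repress phosphate loading into the xylem, differed by -0.34 and -0.13. WRKY31, WRKY36, WRKY61 and WRKY72 had differences between 0.13 and 0.34. In IIe, WRKY22 and WRKY29 are early targets of flagellin perception, and they differed by -0.11 and 0.36. The control arrays of WRKY22 spread by 1.08 on the log2 scale, with vector control replicate 1 highest. WRKY29 read 0.125, 0.138 and 0.146 in sORF2146ox, against 0.0915, 0.127 and 0.103 in the control. WRKY14, WRKY27, WRKY35 and WRKY69 had differences between -0.13 and 0.29.

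The family varied more among control arrays than genes in general did. The control arrays spread by at least 1 on the log2 scale for 22 of 55 members, or 40.0%, against 12.6% of all genes. The sORF2146ox arrays spread that far for 9 members, or 16.4%, against 4.82% of all genes. Of the 22 members, vector control replicate 1 was the highest control array for 20, where it was the highest for 1351 of the 2953 genes with such a spread. The lowest control array was replicate 3 for 16 of them, replicate 2 for 5 and replicate 1 for 1. Over the 2953 genes it was replicate 3 for 1094, replicate 2 for 467 and replicate 1 for 1392.

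The 5 members with replicate 2 lowest were WRKY38, WRKY50, WRKY54, WRKY62 and WRKY70. The 16 with replicate 3 lowest included WRKY46, WRKY30, WRKY41, WRKY53, WRKY33, WRKY40, WRKY48 and WRKY25. Salicylic acid genes with the same spread had replicate 2 lowest in 9 of 11 cases, among them ICS1, the main synthesis enzyme, at 4.05, 1.39 and 2.84 in control replicates 1, 2 and 3. Genes known to be regulated by WRKY factors had replicate 3 lowest in 10 of 14 cases, among them ACS2, an ethylene synthesis gene, at 1.13, 0.254 and 0.0490, and AOX1A, the stress-induced alternative oxidase, at 67.1, 49.8 and 17.9. Root markers with that spread ran differently, with replicate 1 lowest in 7 of 8 cases. That array was also the most frequent lowest one over all genes with such a spread, at 1392 of 2953. CASP1, a gene of the root endodermis, read 5.39, 5.31 and 4.69 in sORF2146ox, against 1.07, 3.99 and 4.69 in the control. The part of root content in the WRKY values was not tested.

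**Figure D4:**
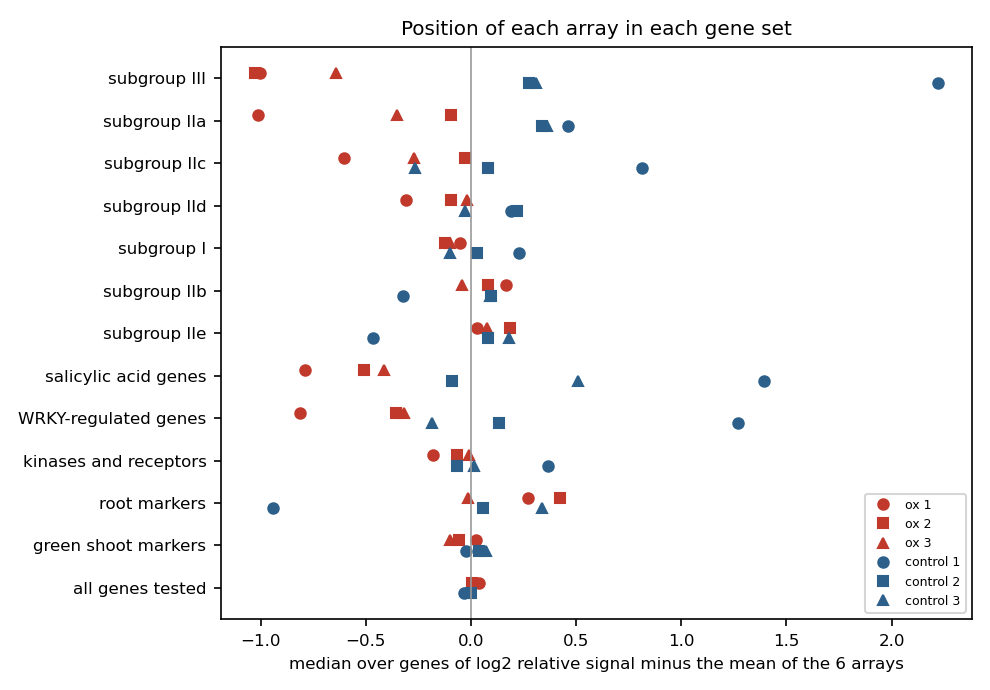
Each point is the median over the genes of a set of the log2 relative signal minus the gene's mean over the 6 arrays, with sORF2146ox arrays in red and control arrays in blue. Vector control replicate 1 stands at 2.22 in subgroup III, 1.39 in the salicylic acid genes and -0.94 in the root markers, and all arrays lie close to 0 over all genes.

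Genes around the family were read from the same test. Of 15 mitogen-activated protein kinases, kinase kinases and immune receptors, all tested, MKK9 fell and none rose. Over all genes limma called 2.65% lower and 2.51% higher, and 1 call among 15 genes says little about the list. The median difference was -0.23, with 12 below 0. That median was 0.02, with 7 below 0, without vector control replicate 1. MKK9, a kinase upstream of ethylene and camalexin synthesis, read 0.852, 1.0 and 1.06 in sORF2146ox, against 1.82, 1.71 and 1.57 in the control, a difference of -0.81 (SE 0.11, limma adjusted p = 0.0314). It passed without vector control replicate 1 or 3 and did not pass without vector control replicate 2 or any sORF2146ox array, at values between -0.88 and -0.72. MPK3, which phosphorylates WRKY33, differed by -0.49 (SE 0.21). MPK6 and MPK4, its relatives, differed by 0.03 and -0.06.

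Among 5 VQ proteins, none passed in limma, with 3 lower at an unadjusted p under 0.05, against 14.3% of all genes, and the median was -0.86, or -0.59 without vector control replicate 1. SIB1, a partner of WRKY33, read 0.0290, 0.0180 and 0.0425 in sORF2146ox, against 0.307, 0.0877 and 0.111 in the control. Its relative SIB2 read 0.621, 0.721 and 1.04 in sORF2146ox, against 1.88, 1.29 and 1.54 in the control. Neither overlapped between groups, and their differences were -2.36 (SE 0.55, limma adjusted p = 0.0632) and -1.0 (SE 0.23, limma adjusted p = 0.0629).

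Of 14 tested salicylic acid genes, 14 had a fitted difference below 0, none passed in limma, and the median was -1.11. At an unadjusted p under 0.05, 9 of 14 were lower, against 14.3% of all genes. The list's median deviation was 1.39 in vector control replicate 1, against -0.09 in replicate 2 and 0.51 in replicate 3, and its median difference was -0.76 without replicate 1, again with 14 below 0. NIMIN1, which binds the receptor NPR1, and SARD1, an activator of ICS1, had the largest differences, at -3.38 (SE 0.98) and -3.26 (SE 0.85). PR1, the usual marker of this pathway, read 0.00211, 4.32 and 3.99 in sORF2146ox, against 4.46, 0.289 and 2.27 in the control, so sORF2146ox replicate 1 was not well above background and replicates 2 and 3 lay within the range of the control.

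Of 19 tested genes known to be regulated by WRKY factors, 14 had a fitted difference below 0. The median of the 19 was -0.97 (-0.94 without vector control replicate 1). FUL, a flowering gene, was the 1 gene that passed, where limma called 2.65% of all genes lower. FUL read 0.0114, 0.0123 and 0.0102 in sORF2146ox, against 0.0204, 0.0243 and 0.0220 in the control, with a difference of -0.97 (SE 0.11, limma adjusted p = 0.0247). These are dim spots, and the difference was 0.07 with normexp and 0.03 with background subtraction, each with an offset of 50. SAG13, a senescence marker, and CYP71A13, a camalexin enzyme, differed by -3.57 (SE 1.04) and -3.49 (SE 1.54) and did not pass. CYP71A13 was well above background on 1 of 3 sORF2146ox arrays, and its difference was -1.88 without vector control replicate 1 and -0.98 with normexp. PHT1;1, the phosphate transporter that WRKY45 and WRKY75 activate, read 34.0, 42.8 and 31.1 in sORF2146ox, against 14.6, 19.7 and 25.2 in the control. Its groups did not overlap, in the direction opposite to WRKY75, and the difference of 0.88 (SE 0.23, limma adjusted p = 0.0757) did not pass.

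Of 15 WRKY genes outside the 57, 9 were tested and none passed in limma. At an unadjusted p under 0.05, 1 was lower and 1 higher, against 14.3% and 16.5% of all genes. Their median difference was -0.14, and 0.05 with normexp. WRKY63, a subgroup III gene, read 0.0123, 0.0150 and 0.0119 in sORF2146ox, against 0.271, 0.0441 and 0.0396 in the control, with no overlap and a difference of -2.58 (SE 0.75, limma adjusted p = 0.0905). It was -1.68 and passed without vector control replicate 1 (limma adjusted p = 0.019), and was -0.70 with normexp. WRKY74 differed by -0.74 (SE 0.34). WRKY24, a subgroup IIc gene picked after its values were seen, read 0.0382, 0.0342 and 0.0253 in sORF2146ox, against 0.0198, 0.0250 and 0.0227 in the control, a difference of 0.52 (SE 0.18).

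**Figure D5:**
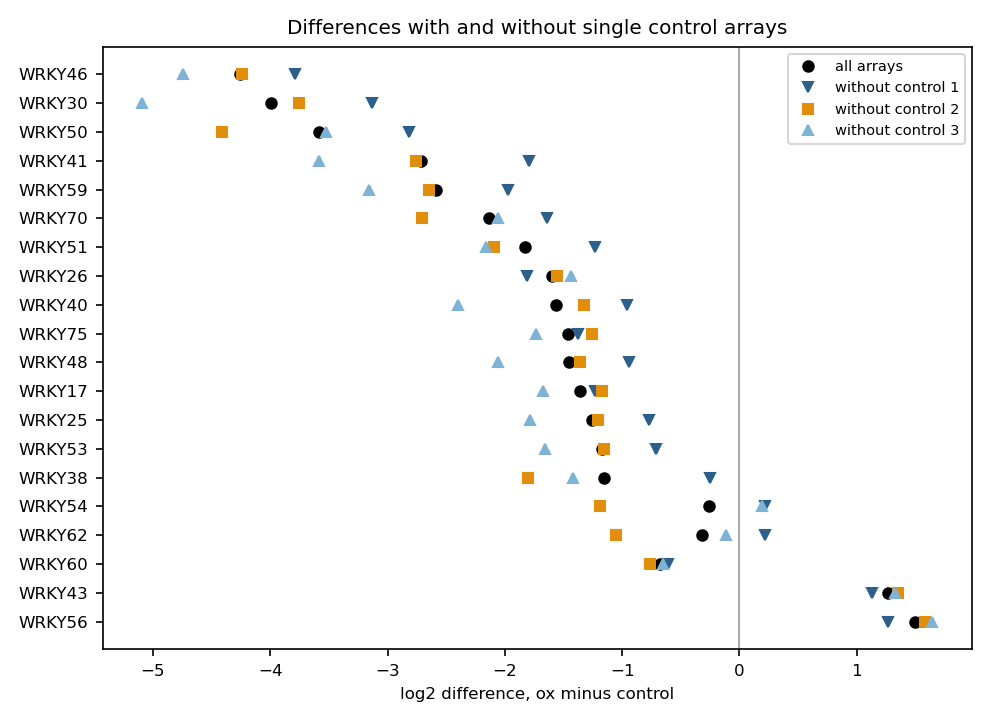
Log2 differences of 20 members with all arrays (black) and without vector control replicate 1, 2 or 3 in turn. WRKY46 stays between -4.74 and -3.79 and WRKY43 between 1.13 and 1.35, while WRKY38 comes to -0.25 without replicate 1 and WRKY54 and WRKY62 cross 0.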

How the data were processed

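Cy3-labelled cRNA from 200 ng of RNA was hybridised to 1 array per sample, per the labels' protocols. Spot intensity was extracted with Agilent Feature Extraction, version 11.5.1.1 per the file headers. The deposited processed signal is an intensity after background subtraction and detrending within an array, per the headers of those files, and was not scaled between arrays. Slide could not be a block, since each slide held 1 group. A second deposited table gives linear intensity for the 6 arrays, its normalization not given in the sources used here. When each column was sorted, 96.3% of ranks held the same value in every column (relative tolerance 1e-06), and its columns correlated with the log2 processed signal at 0.9996 or more across probes.

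Log2 processed signals were reduced by each array's 75th percentile over 35635 probes, and outlier spots were dropped, none of them a member's. A gene took its brightest probe that passed the filter. Groups were compared across all genes by limma 3.58.1 (lmFit, eBayes) under R 4.3.3. P-values were adjusted by Benjamini-Hochberg, and genes under 0.05 were called. The script was tested on simulated data. Gene names come from the RefSeq table for TAIR10.1, where 57 of 57 members matched. The build of the array design's annotation was not used, so no coordinates are given.

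The members, the other lists and the tests were chosen with earlier results of these data known, WRKY43 and WRKY46 among them. Named genes were members that passed, the 12 largest falls and 8 largest rises, all of subgroups IIa and III, and in each other list the genes that passed and the 2 largest differences. Remaining members and a few pathway genes are named in addition, the latter after their values were seen. The planned naming of closest protein relatives was not done, as no protein sequences were used here. Median signals took the place of mean signals in normexp. Replicate numbers were not used to pair the arrays in the main test, as the labels do not say that they pair them. Figures were drawn with matplotlib 3.10.9.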

Additional observations from a re-analysis of the deposited data

How the results depend on the processing

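The 17 alternatives were planned and run. WRKY46 and WRKY43 kept their direction in 17 of 17 and each passed in 10. Of 441 values of the 26 members named by rule, 391 kept direction and side of the threshold, 14 no longer passed, 25 came to pass and 11 changed sign. The members called numbered 2 of 55 with all arrays, 0 with normexp, 0 of 57 with no filter on dim probes, and 5 with trend and robust variance. They numbered 15 with no scaling between arrays, and 0 to 9 when single arrays were left out. The 9 were without vector control replicate 3, where 56 were tested. Pathway genes came from the lists of kinases and receptors, VQ proteins, salicylic acid genes and WRKY-regulated genes (15, 5, 14 and 19 tested). Pathway genes called numbered 2, and they were 0 with normexp, 5 with background subtraction, 20 with no scaling, 1 with no filter, and 0 to 6 without single arrays. Over all genes the 1209 calls (5.17%) were 4 with normexp (0.02%), 1548 with background subtraction (6.62%) and 2563 with no scaling (11.0%). They were 188 with no filter (0.53%) and 1707 with trend and robust variance (7.30%). Without vector control replicate 1 or 3 they were 1190 and 1191 (5.04% each), and without any other single array 35 to 51 (0.15% to 0.22%). Each fit without an array had fewer samples, and why the counts differed between these fits was not tested. Without scaling the median of all genes was -0.28, against 0.03 with it, and 50 of 55 members were below 0, against 39. The 11 members that turned below 0 lay between -0.26 and -0.019, all above that median, among them WRKY61, WRKY12 and WRKY35 at -0.071, -0.021 and -0.019.

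The replicate block gave 0 members, 0 pathway genes and 14 genes in all. The labels do not say that replicate numbers pair the arrays, and between arrays of 1 number the correlation of deviations was -0.0857, -0.00047 and -0.0226 over genes, with no array matching its own number best.

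Over all 55 members, 6 changed sign with normexp, 6 with background subtraction, 2 with quantile normalization, 2 with the deposited table and 0 to 10 without single arrays, most without vector control replicate 1. With all arrays the largest difference among these was 0.32 in size. WRKY62 was 0.059 with normexp and 0.094 with background subtraction, and ranged from -1.05 to 0.22 when single arrays were left out, above 0 without sORF2146ox replicate 1 or vector control replicate 1. WRKY54 ranged from -1.19 to 0.22, above 0 in 3 of these 6 cases, WRKY61 from -0.036 to 0.41 and GLK1 from -0.22 to 0.071. With normexp FUL was 0.065, EM6 0.038 and SEP1 0.15, and with background subtraction FUL was 0.030, WRKY74 0.016 and SEP1 0.13. The number of arrays limits the precision. A signal near background limits WRKY41, WRKY42, WRKY55 and WRKY58, which were not well above background on every array. Other members were also dim in at least 1 group, among them WRKY13, WRKY30, WRKY56, WRKY59 and WRKY62. WRKY13 was at -0.25 with all arrays and 0.15 with normexp.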
